A study of Mus musculus with 9 samples.

Results

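The 9 CXC chemokine genes Cxcl1, Cxcl2, Cxcl3, Cxcl5, Cxcl9, Cxcl10, Cxcl11, Cxcl12 and Cxcl16 were examined, of 37273 annotated mouse genes, in ChIP-seq of the NF-κB subunits RelA and RelB. The cells were mouse embryonic fibroblasts (MEFs) of genotype NfkB2-/-, a line that the methods describe as immortalised by serial passaging and that lacks p100, and there was no other genotype. ChIP was performed at 0 h and at 6 h of continuous treatment with 10 ng/ml TNF, with 2 libraries per antibody and time, which gave 8 lists of peaks. A peak was counted for a gene when its centre lay within 50 kb of the start site of that gene in the mm9 genome, and a peak in reach of several genes was counted for each of them. Peaks that overlapped between libraries were merged into sites, and 33 of 25055 peaks and 14 of 14779 sites at 6 h lay near these genes.

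Chemokines are small secreted proteins that direct the movement of leukocytes, and the CXC family is named for the cysteine pattern near the amino terminus. Cxcl1, Cxcl2, Cxcl3 and Cxcl5 attract neutrophils through Cxcr2, Cxcl9, Cxcl10 and Cxcl11 are interferon-inducible ligands of Cxcr3 on activated T cells, Cxcl12 is the largely homeostatic ligand of Cxcr4, and Cxcl16 is a membrane-anchored ligand of Cxcr6. RelA and RelB bind DNA as dimers at κB sequences, and several of these genes are textbook NF-κB targets in fibroblasts stimulated with TNF. p100, the product of Nfkb2, holds RelA and RelB in the cytoplasm.

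Except for Cxcl12 on chromosome 6 and Cxcl16 on chromosome 11, the genes lie on chromosome 5 in pairs or triplets whose start sites share peaks. Cxcl1 (ENSMUSG00000029380.10, chr5:91320267-91322141, plus strand) and Cxcl2 (ENSMUSG00000058427.6, chr5:91332897-91334935, plus strand) start 12.63 kb apart. Cxcl5 (ENSMUSG00000029371.5, chr5:91188325-91190651, plus strand) and Cxcl3 (ENSMUSG00000029379.9, chr5:91215129-91217112, plus strand) start 26.8 kb apart, and Cxcl3 starts 105 kb from Cxcl1. Cxcl9 (ENSMUSG00000029417.7, chr5:92750357-92757105) lies on the minus strand. So do Cxcl10 (ENSMUSG00000034855.7, chr5:92775664-92777915) and Cxcl11 (ENSMUSG00000060183.6, chr5:92788570-92794511), which the annotation used here holds as a processed transcript. Cxcl16 (ENSMUSG00000018920.5, chr11:70267485-70273486) is on the minus strand and Cxcl12 (ENSMUSG00000061353.5, chr6:117118553-117131385) on the plus strand.

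The Cxcl1, Cxcl2, Cxcl3 and Cxcl5 sequences below are shown because the same κB run occurred at start sites with and without a peak. The Cxcl10 sequence does not hold that run and is shown because the strongest site lay at its start. All sequences are the 250 bases that end 1 base before the start site in mm9, read along the strand of the gene. Capitals mark every base covered by a match to the κB consensus on either strand. The first is at chr5:91320017-91320266 and the second at chr5:91332647-91332896, both on the plus strand.
Cxcl1: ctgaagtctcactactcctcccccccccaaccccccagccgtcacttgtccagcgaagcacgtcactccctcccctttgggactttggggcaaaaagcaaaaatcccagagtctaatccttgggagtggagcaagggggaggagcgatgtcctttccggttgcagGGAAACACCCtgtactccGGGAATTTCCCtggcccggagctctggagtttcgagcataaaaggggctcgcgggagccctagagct
Cxcl2: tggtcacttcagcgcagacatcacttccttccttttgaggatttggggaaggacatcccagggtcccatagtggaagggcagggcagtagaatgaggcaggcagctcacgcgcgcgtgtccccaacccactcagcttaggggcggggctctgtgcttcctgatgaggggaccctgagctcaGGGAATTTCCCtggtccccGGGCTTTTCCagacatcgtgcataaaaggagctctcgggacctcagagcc
The next are chr5:91214879-91215128 and chr5:91188075-91188324, also on the plus strand.
Cxcl3: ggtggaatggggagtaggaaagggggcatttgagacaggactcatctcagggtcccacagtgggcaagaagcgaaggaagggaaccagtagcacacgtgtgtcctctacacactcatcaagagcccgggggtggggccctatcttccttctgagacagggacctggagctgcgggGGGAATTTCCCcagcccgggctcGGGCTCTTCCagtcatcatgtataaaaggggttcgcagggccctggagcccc
Cxcl5: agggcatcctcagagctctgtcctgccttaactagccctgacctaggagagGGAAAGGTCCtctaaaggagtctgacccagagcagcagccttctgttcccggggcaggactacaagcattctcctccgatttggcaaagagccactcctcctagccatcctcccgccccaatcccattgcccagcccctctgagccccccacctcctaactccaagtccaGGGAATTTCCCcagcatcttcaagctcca
The last is chr5:92777916-92778165 on the minus strand.
Cxcl10: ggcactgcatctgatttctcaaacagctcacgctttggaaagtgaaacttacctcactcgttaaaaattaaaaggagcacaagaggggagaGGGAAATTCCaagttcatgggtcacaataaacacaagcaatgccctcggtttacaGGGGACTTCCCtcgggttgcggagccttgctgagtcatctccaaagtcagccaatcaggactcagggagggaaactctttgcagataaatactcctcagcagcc

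The promoters of the 4 neutrophil-attracting ligands held the same run of 11 bases, GGGAATTTCCC, which began 67 bp upstream of the start site in Cxcl1, 69 bp in Cxcl2, 75 bp in Cxcl3 and 29 bp in Cxcl5. Cxcl1 had another κB match 85 bp upstream, Cxcl2 had another at 50 bp, Cxcl3 had another at 52 bp and Cxcl5 had another at 199 bp. The Cxcl10 promoter held a match 159 bp upstream and overlapping matches at 104 and 103 bp. It was also the member promoter with a match to the core of the interferon-stimulated response element (ISRE), 213 bp upstream, and it held the AP-1 motif TGANTCA 74 bp upstream.

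At 6 h of TNF, 8 of the 9 genes had a peak within 50 kb in at least 1 of the 4 libraries, against 39.6% of all annotated genes. A site called in all 4 libraries lay within 50 kb of 6 of the 9 genes, namely Cxcl1, Cxcl2, Cxcl9, Cxcl10, Cxcl11 and Cxcl16, against 8.89% of all annotated genes and 9.83% of protein-coding genes. Such a site lay within 1 kb of the start of 2 of the 9, Cxcl1 and Cxcl10, against 0.8% of all genes. The 6 genes are not 6 separate observations, since Cxcl1 and Cxcl2 share 3 of these sites and Cxcl9, Cxcl10 and Cxcl11 share 1. None of the 9 genes had a peak at 0 h, where 1.2% of all genes had one.

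The number of peaks near the 9 genes was 9 and 8 in the RelA libraries at 6 h, 7 and 9 in the RelB libraries at 6 h, and 0 in each of the 4 libraries at 0 h. With both antibodies pooled, the mean was 8.25 ± 0.957 (SD, n = 4) at 6 h against 0 at 0 h. A two-sided exact permutation test over the 8 libraries gave p = 0.029, the smallest that 4 against 4 allows. The groups did not overlap. The whole lists differed in the same way: they held 14 to 194 peaks at 0 h and 5192 to 7052 at 6 h, with 120352 to 162105 ChIP reads in peaks per library at 6 h and 317 to 4677 at 0 h. Peaks near the 9 genes made up 0.128% and 0.141% of the RelA lists and 0.135% and 0.134% of the RelB lists at 6 h. At their pooled share of 0.134%, the 425 peaks of the 0 h lists together would hold 0.569 such peaks, so whether these genes differed from the rest of the genome at 0 h was not detectable. For the same reason the permutation test cannot set these genes apart from the whole lists. The smallest peak held 10 or 11 ChIP reads at 6 h and 13 or 14 at 0 h, depending on the library, and binding below that was not listed. The labels do not say whether the libraries came from separate cultures, so the p-values cover only the spread between these libraries.

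**Figure D1:**
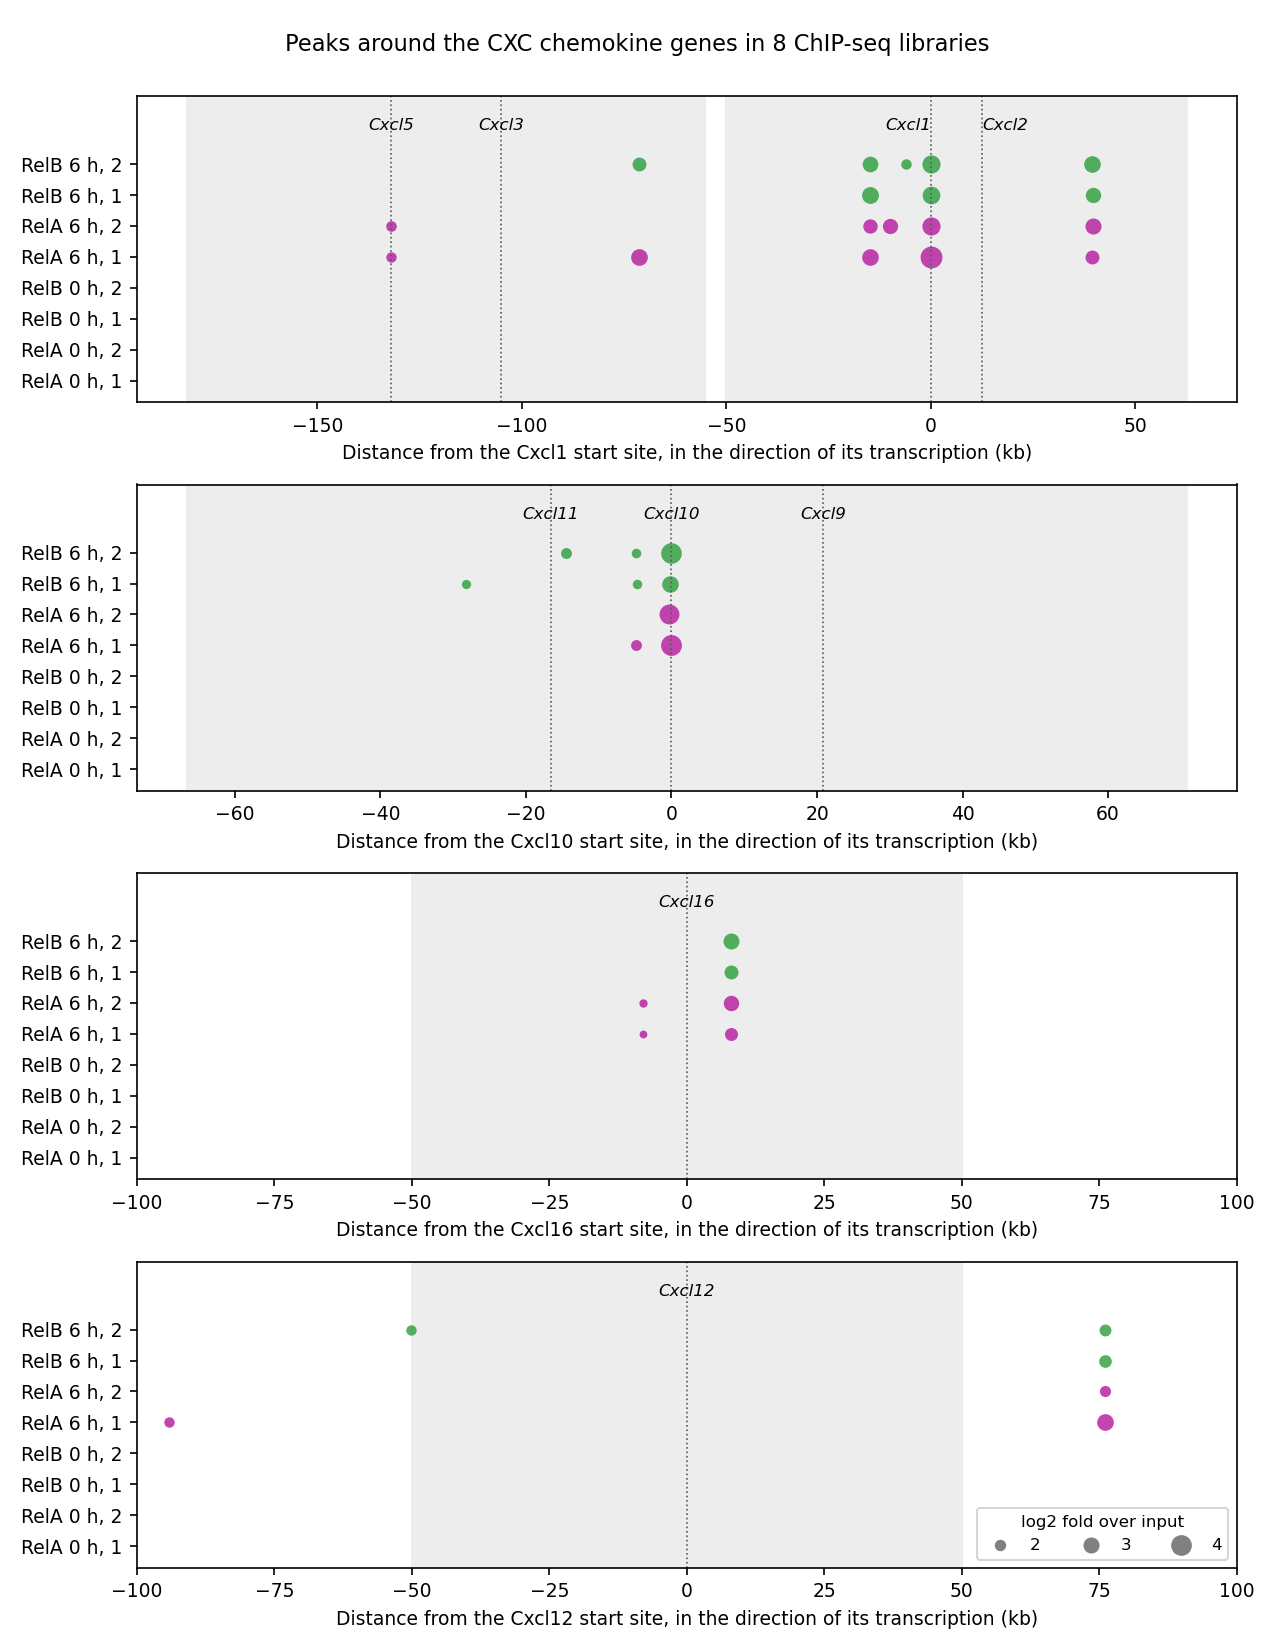
Peaks (dots) in each of the 8 libraries by their distance in kb from the start site named under each panel, with dotted lines at start sites and grey for the 50 kb windows. Magenta is RelA, green is RelB, and the dot's area rises with the log2 fold over input. No dot lies in the rows for 0 h, columns of 4 dots stand at Cxcl1 and Cxcl10, and the window of Cxcl12 holds none.

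The map of peaks by library shows how unevenly they were placed. Of the 14 sites, 5 had a peak in all 4 libraries, against 12.6% of all sites. A further 1 was in 3 libraries, 1 was in both RelA libraries and no RelB library, against 2.66% of all sites, and 1 was in 1 library of each antibody. The remaining 6 sites were in 1 library, 3 of them RelA and 3 RelB, against 67.9% of all sites. No site near these genes was in both RelB libraries and no RelA library, against 3.9% of all sites.

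Cxcl1, the mouse neutrophil attractant also known as KC, had its strongest site on its own start. The site spanned chr5:91320039-91320441, its centre lay 14 bp upstream of the start, and it reached over the first exon into coding sequence. The deposited strength of a peak, the log2 fold of ChIP over scaled input in its strongest window, was 4.70 and 3.91 with the RelA antibody, against 3.81 and 3.91 with the RelB antibody (replicate 1 before replicate 2, here and in what follows). The peaks held 52 and 34 ChIP reads with the RelA antibody, against 31 and 22 with the RelB antibody. By FDR rank, the peak stood 32 of 7052 and 225 of 5688 in the RelA lists, and 372 of 5192 and 2083 of 6698 in the RelB lists. The second RelB library thus had the lowest rank, the fewest reads and the widest peak, 403 bp against 41 or 42 bp in the others. The shared κB run lay inside this wide peak and upstream of the narrow ones. All 4 folds equalled the value of a window without an input read (25, 14, 13 and 14 ChIP reads in the order above). The highest input count of a window in the peak was 4 or 5 reads in each library, not necessarily in the fullest ChIP window.

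The other 2 sites in all 4 libraries near Cxcl1 and Cxcl2 lay between genes. The first, chr5:91305234-91305473, was centred 14912 bp upstream of the Cxcl1 start, with folds of 3.57 and 3.09 with the RelA antibody, against 3.62 and 3.37 with the RelB antibody and 37 to 55 ChIP reads per peak. The second, chr5:91359419-91360203, was centred 26944 bp downstream of the Cxcl2 start and 381 bp from the start of Mthfd2l, a gene of mitochondrial folate metabolism. Its folds were 2.99 and 3.45 with the RelA antibody, against 3.29 and 3.57 with the RelB antibody, with 28 to 45 ChIP reads. For each of these sites the ranges of the antibodies overlapped. The κB matches within them are printed with 10 bases on each side, on the plus strand, as chr5:91305285-91305314, chr5:91305396-91305425 and chr5:91359736-91359765.
Upstream of Cxcl1, first match: gtccacacatGGGATTTCCCaaggatttaa
Upstream of Cxcl1, second match: agataaaccaGGATAATTCCcaggagaagc
Downstream of Cxcl2: tctaacatctGGGACTTTCCataactagtt

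Cxcl2, which codes for the neutrophil attractant MIP-2, had no peak within 1 kb of its own start in any library, although its promoter carries the same κB run as Cxcl1. The nearest peak to its start was the Cxcl1 start-site peak in each library at 6 h, 12640 bp away in both RelA libraries. Reads were kept only where they aligned to a unique place, and every 32-base word of the Cxcl1, Cxcl2, Cxcl3 and Cxcl5 promoters occurred once in mm9. Words with mismatches were not searched, and why Cxcl2 had no peak at its start was not tested.

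Cxcl5 and Cxcl3, also neutrophil attractants, had no site in all 4 libraries. The site on the Cxcl5 start, chr5:91188109-91188586 with its centre 35 bp upstream, had a peak in both RelA libraries, with folds of 2.24 and 2.28, 26 and 15 ChIP reads and FDR of 0.028363 and 0.011925. It had no peak in either RelB library, and the shared κB run lay 11 bp from its centre. The fullest window held 14 ChIP reads in each RelA library, fewer than at the start of Cxcl1 in any library. The highest input count of a window in the peak was 7 and 6 reads before scaling. The absence of a RelB peak means only that no window passed those limits. Cxcl3 had no peak within 1 kb of its start, and its strongest site lay 33795 bp downstream, between genes, at chr5:91248759-91249083. That site had a RelA peak in replicate 1, with a fold of 3.58 on 16 ChIP reads, and a RelB peak in replicate 2, with a fold of 2.98 on 11 reads. The RelA fold equalled the value of a window with 11 ChIP reads and no input read. In that peak the fullest window held 12 ChIP reads, and the highest input count of a window was 3. The site is printed because it had the highest fold near Cxcl3 and held no κB match, as chr5:91248824-91249024 on the plus strand.
Downstream of Cxcl3: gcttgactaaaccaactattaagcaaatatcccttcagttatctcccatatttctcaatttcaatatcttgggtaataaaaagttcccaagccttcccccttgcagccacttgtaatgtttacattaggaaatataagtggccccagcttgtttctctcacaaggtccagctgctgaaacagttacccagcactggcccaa

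Cxcl10, which codes for IP-10, had the strongest of the 14 sites by mean fold, at chr5:92777753-92778678 with its centre 160 bp upstream of the start. Its folds were 4.47 and 4.28 with the RelA antibody, against 3.56 and 4.43 with the RelB antibody. The peaks held 68 and 78 ChIP reads with the RelA antibody, against 42 and 77 with the RelB antibody, and their ranks were 78 of 7052, 119 of 5688, 576 of 5192 and 124 of 6698. The first RelB library stood below the other libraries here, while the second was between the RelA values. The site lies in an intron of Art3 as well, a gene annotated across this cluster. It was the single site in all 4 libraries for Cxcl9, which codes for MIG, and for Cxcl11, the I-TAC gene, annotated here as a processed transcript. Their starts lie 20.81 kb and 16.6 kb from that of Cxcl10. Neither Cxcl9 nor Cxcl11 had a peak within 1 kb of its own start. The Cxcl9 promoter held 1 κB match, 130 bp upstream, and the Cxcl11 promoter held none.

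Weaker sites surrounded Cxcl10. The site 4837 bp upstream, chr5:92782687-92782856 in the Art3 intron, had folds of 2.34 in RelA replicate 1 and 2.04 and 2.06 in the RelB libraries, on 12 to 23 ChIP reads. A peak of RelB replicate 2 in Cxcl11, 2142 bp downstream of its start, had a fold of 2.35 on 18 reads. A peak of RelB replicate 1, 11653 bp upstream of Cxcl11, had a fold of 1.99 on 17 reads.

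Cxcl16 had a site in all 4 libraries 7982 bp downstream of its start and beyond its end, at chr11:70265415-70265577. This site covers untranslated and coding sequence of the first exon of Med11, a Mediator subunit gene, and its centre lies 83 bp from the start of Med11. Its folds were 2.79 and 3.31 with the RelA antibody, against 3.01 and 3.43 with the RelB antibody, with 16 and 31 ChIP reads with the RelA antibody, against 30 and 49 with the RelB antibody. Replicate 1 was the lower in both antibodies. Upstream of Cxcl16, a RelA replicate 1 peak at 7922 bp with a fold of 1.67 and a RelA replicate 2 peak at 7984 bp with a fold of 1.79 lay next to each other without overlapping. The κB match of the Med11 site is at chr11:70265462-70265471, and it is printed with 10 bases on each side, as chr11:70265452-70265481 on the plus strand.
Downstream of Cxcl16: gacggcctgtGGGGCTTTCCactggaacga

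Cxcl12 had no peak within 50 kb in any library. Just outside, a RelB replicate 2 peak with a fold of 2.23 on 13 ChIP reads lay 50212.5 bp upstream, whereas the member of the 14 sites closest to the limit was the RelB replicate 1 peak 49058.5 bp from Cxcl9, with a fold of 1.99 on 17 reads. Further out, a site in all 4 libraries at chr6:117194290-117194779 lay 76024 bp downstream of the Cxcl12 start, with folds of 3.58 and 2.40 with the RelA antibody, against 2.72 and 2.56 with the RelB antibody. The absence of Cxcl12 from the bound genes therefore depends on the 50 kb limit.

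**Figure D2:**
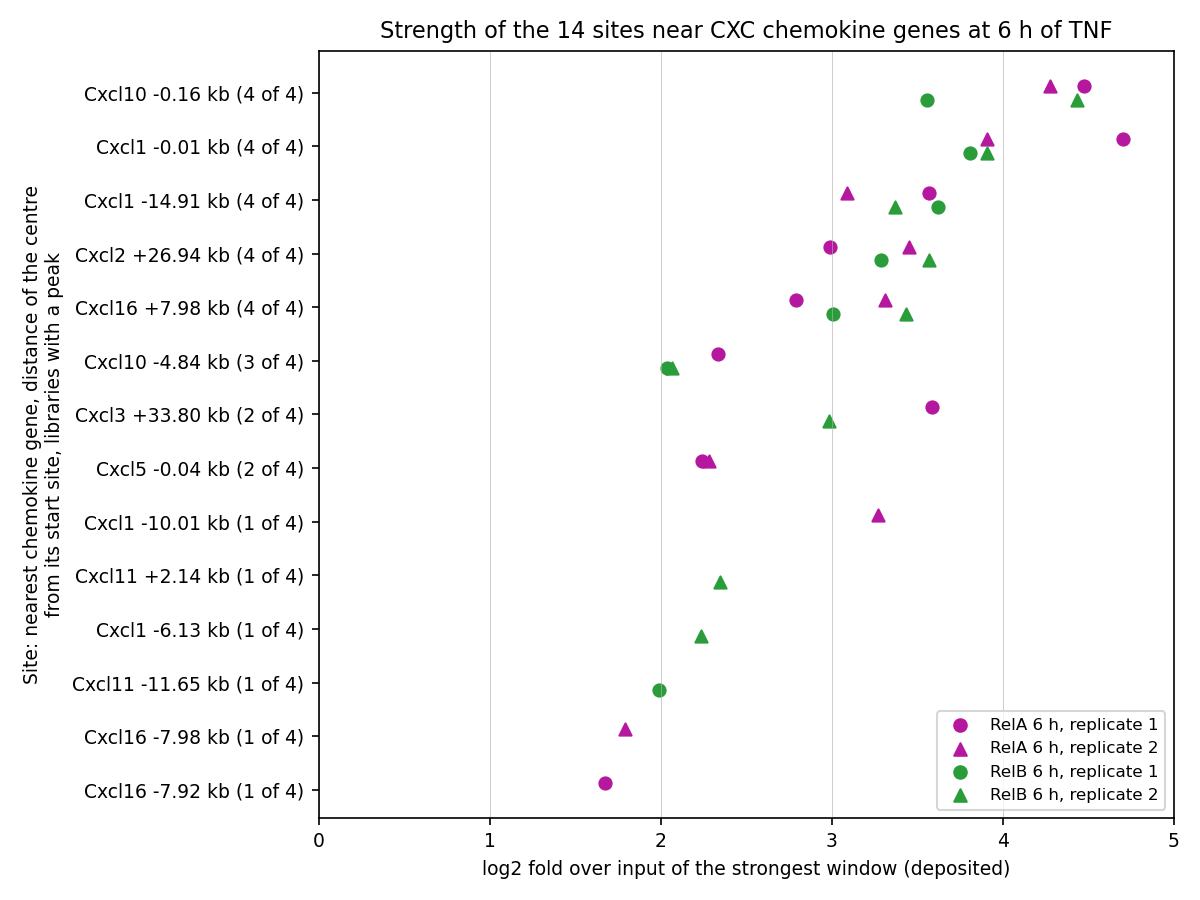
Deposited log2 fold over input (horizontal axis) of every peak in the 14 sites at 6 h, in order of the number of libraries with a peak (in brackets) and then of mean fold, where sites are named by the nearest gene and the distance of the site's centre from its start. Circles and triangles are replicates 1 and 2, magenta is RelA and green is RelB, and the start-site sites of Cxcl10 and Cxcl1 lie farthest to the right.

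The plot of fold by site shows where the sites in all 4 libraries stood. By mean fold over the 4 libraries, the start sites of Cxcl10 and Cxcl1 ranked 130 and 171 of the 1860 sites of this kind in the genome. The site upstream of Cxcl1 ranked 681, the site downstream of Cxcl2 ranked 777 and the Med11 site near Cxcl16 ranked 1006. The Cxcl10 and Cxcl1 start sites did not differ from each other beyond the spread of their libraries, with RelA means of 4.38 ± 0.138 and 4.30 ± 0.561 and RelB means of 3.996 ± 0.619 and 3.86 ± 0.0704 (SD, n = 2). In the other 3 sites no library reached the lowest value of the Cxcl1 start site.

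**Figure D3:**
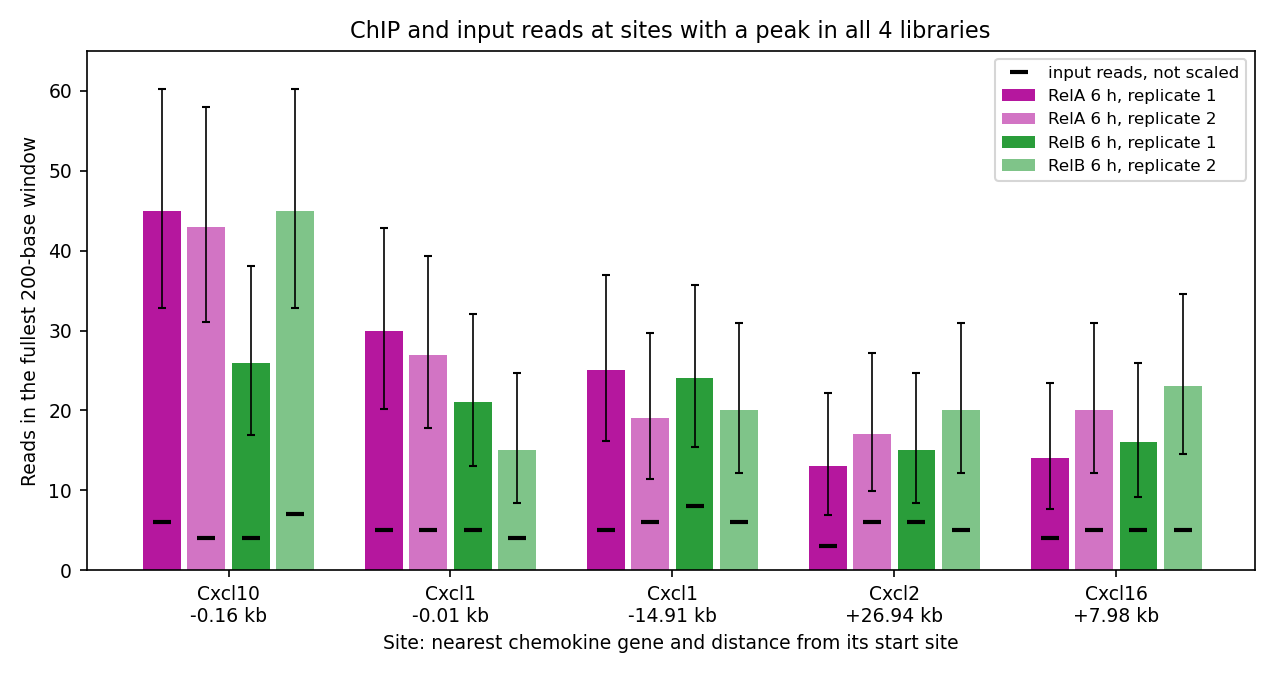
ChIP reads in the fullest 200-base window (bars, with exact Poisson 95% intervals that cover counting error only) at the 5 sites in all 4 libraries. Black marks are the highest input count of a window in the peak before scaling, which need not be the same window. The Cxcl10 start site held 26 to 45 ChIP reads and the Cxcl1 start site 15 to 30, above 3 to 8 input reads at all 5 sites.

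The reads behind these folds were few, as the plot of reads in the fullest window shows. The window held 45, 43, 26 and 45 ChIP reads at the Cxcl10 start and 30, 27, 21 and 15 at the Cxcl1 start, in the order RelA 1, RelA 2, RelB 1, RelB 2. At the other 3 sites it held 13 to 25. At each of the 5 sites the intervals of the 4 libraries overlapped, and total reads per library are not known.

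Whether RelA and RelB differed in strength was tested at the 5 sites in all 4 libraries, in a limma fit over all 1860 such sites with each library centred on its median. None of the 5 passed an adjusted p of 0.05, where 0.591% of all sites did (11 of 1860, 8 stronger for RelA and 3 stronger for RelB), and 0 of the 5 against 313 of the 1860 had an unadjusted p under 0.05. At the Cxcl1 start RelA was higher by 0.53 on the log2 scale (SE 0.309, 95% interval -0.15 to 1.21, limma adjusted p = 0.416). The folds at that start equalled those of windows without an input read, as given above. At the Cxcl10 start RelA was higher by 0.46 (SE 0.319, 95% interval -0.24 to 1.17, limma adjusted p = 0.495). The upper bounds leave room for a difference of more than 1 log2 unit at either start.

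At the 3 weaker sites the differences, RelA minus RelB, were closer to 0. They were -0.08 upstream of Cxcl1 (95% interval -0.71 to 0.55), -0.13 downstream of Cxcl2 (95% interval -0.76 to 0.51) and -0.09 at the Med11 site near Cxcl16 (95% interval -0.75 to 0.58), with limma adjusted p of 0.915, 0.857 and 0.916. The median of the 5 differences was -0.08, beside -0.01 over all sites, and the median size was 0.126, beside 0.306 over all sites. With 2 libraries per antibody these intervals do not show that RelA and RelB bound alike. Sites without a peak in every library had no fold there and could not be fitted. The fit thus left out sites called for RelA only or RelB only, such as that on the Cxcl5 start.

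**Figure D4:**
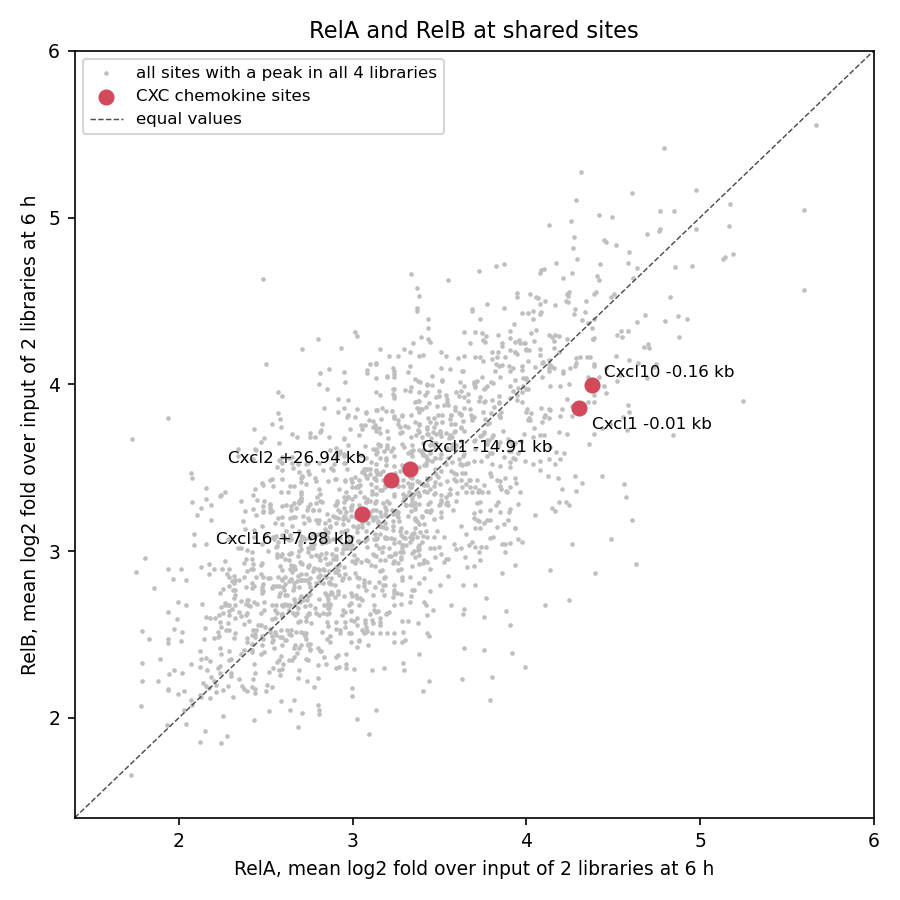
Mean log2 fold over input of the 2 RelA libraries (horizontal axis) and of the 2 RelB libraries (vertical axis) at the 1860 sites bound in all 4 libraries (grey), with the 5 CXC chemokine sites in red. The Cxcl1 and Cxcl10 start sites lie on the RelA side of the dashed line of equal values and the other 3 lie slightly on the RelB side, within the grey cloud.

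A κB match lay within 100 bp of the centre in 5 of the 5 sites in all 4 libraries, against 79.9% of all such sites, and in 6 of the 9 other sites, against 40.6% of all sites in fewer than 4 libraries. The 2 neighbouring sites upstream of Cxcl16 are among these 6 and share 1 match, at chr11:70281491-70281500. The 3 sites without a match were the site downstream of Cxcl3 and the single-library sites 10009 and 6130 bp upstream of Cxcl1. The ISRE core was found at 1 of the 5 sites, Cxcl10, against 4.09% of all such sites, and so was AP-1, against 17.8%. The STAT motif TTCNNNGAA was at 1 of the 14 sites, the site 4837 bp upstream of Cxcl10, against 9.06% of all sites.

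In the promoters, taken from 250 bases before to 50 after the start, 6 of the 9 genes held a κB match, against 23.6% of all promoters. Those of Cxcl11, Cxcl12 and Cxcl16 held none. The run GGGAATTTCCC shared by Cxcl1, Cxcl2, Cxcl3 and Cxcl5 was in 15 of 37273 promoters, or 0.0402%. Of those 15 genes, 1, which was Cxcl1, had a site in all 4 libraries within 1 kb of its start, or 6.67%, where 0.8% of all genes had one. A peak in any library lay there for 3 of the 15 (20%), Cxcl1 and Cxcl5 among them, where it did for 4.91% of all genes. The run was taken from Cxcl1, Cxcl2, Cxcl3 and Cxcl5 after their peaks were seen. These genes are among the 15, so the shares do not test whether the run goes with binding. Among the 1860 sites in all 4 libraries, 41 (2.2%) held the run within 100 bp of the centre. A match describes letters in a window and not a bound site.

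**Figure D5:**
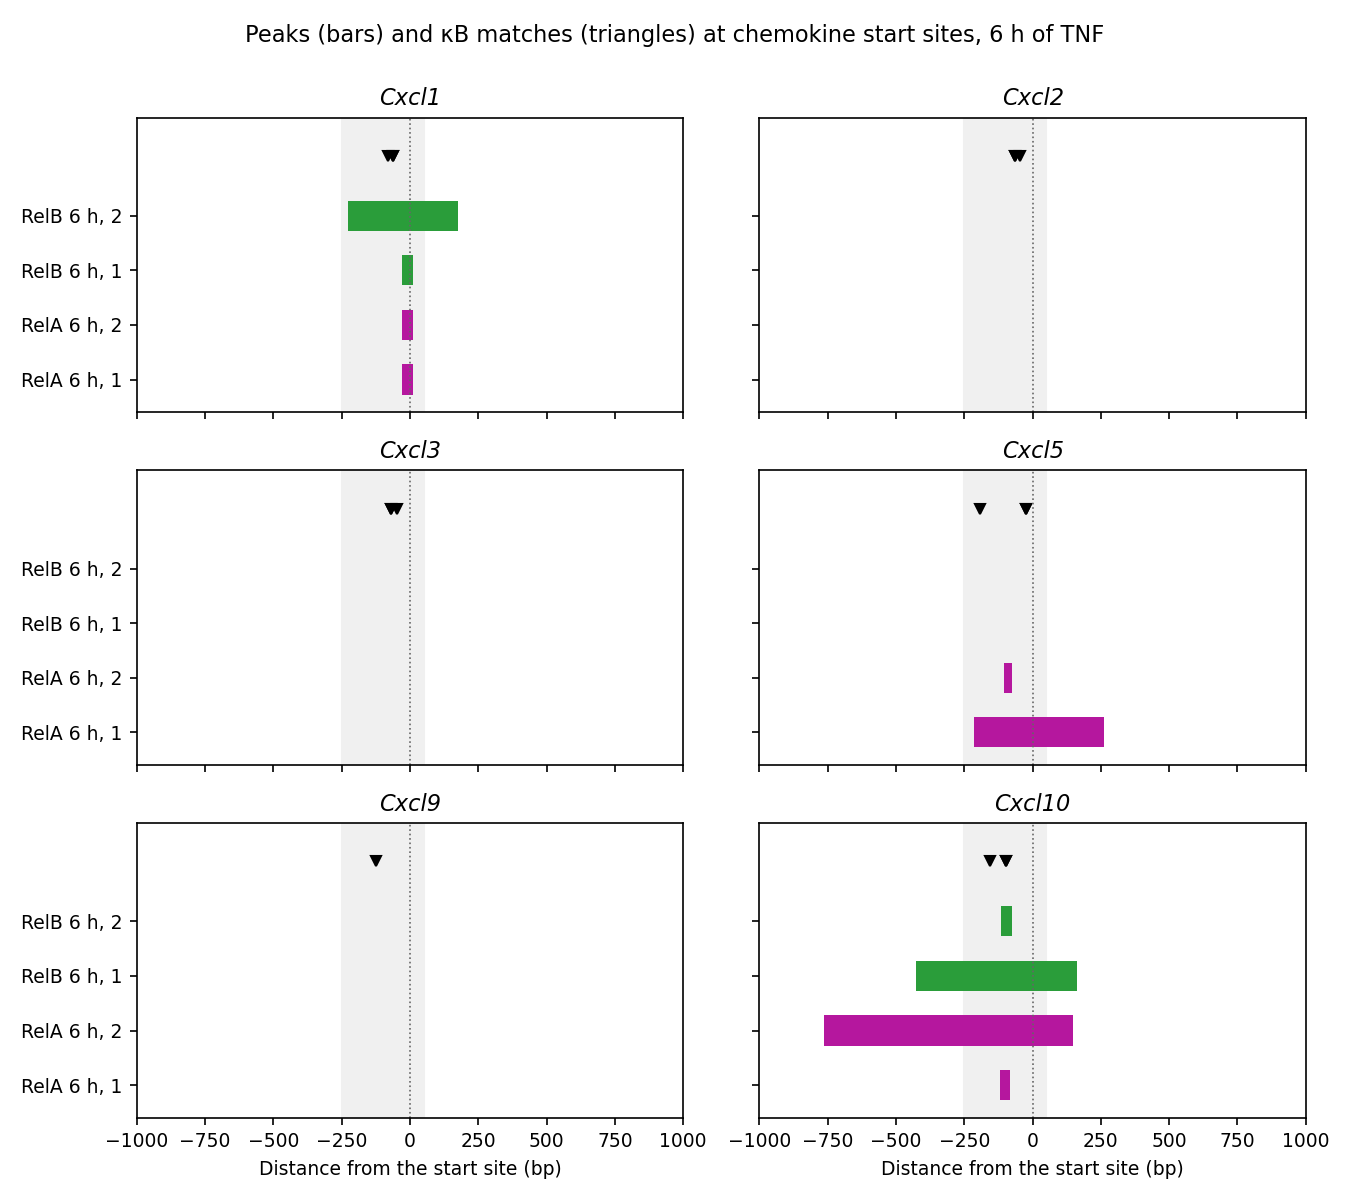
Peaks at 6 h (bars, magenta RelA, green RelB) and κB matches (triangles) by distance in bp from the start site, for the 6 genes with a κB match in the promoter window from 250 bases before to 50 after the start (grey). Cxcl1 and Cxcl10 have bars in all 4 libraries, Cxcl5 in the RelA libraries, and Cxcl2, Cxcl3 and Cxcl9 have matches and no bar.

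The map of promoter peaks sets the genes with the same motif side by side. Bars for 4, 0, 0 and 2 libraries stood at the Cxcl1, Cxcl2, Cxcl3 and Cxcl5 starts, although all 4 carried the run. What else differed between these promoters was not tested.

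Among other genes of the CXC system, 6 ligands and 8 receptors were examined, beside 39.6% of all genes with a peak within 50 kb at 6 h and 8.89% with a site in all 4 libraries. Of the 6 ligand genes, 5 had a peak and 0 had a site in all 4 libraries. Pf4, Ppbp and Cxcl15 shared sites with Cxcl5 or Cxcl3 and had no others, Cxcl13 had a peak in RelA replicate 1, Cxcl17 had a site in 1 library of each antibody with folds of 3.06 and 3.07, and Cxcl14 had none. Of the 8 receptor genes, 3 had a peak and 0 had a site in all 4 libraries. Cxcr7, a scavenging receptor for Cxcl12, had a site 1567 bp downstream of its start in both RelA libraries, with folds of 2.99 and 3.36. Cxcr5, the receptor for Cxcl13, had 5 sites, 1 of them in 3 libraries, and Cxcr2 had 1 peak, 49895 bp upstream. Cxcr1, Cxcr3, Cxcr4, Cxcr6 and Darc had none, and none of these 14 genes had a peak at 0 h.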

How the data were processed

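RelA and RelB ChIP-seq libraries from NfkB2-/- MEFs were analysed from their 8 peak lists. The input library was not analysed here. Per the submitters' processing notes and methods, the authors trimmed reads with cutadapt, removed bases of quality under 20, aligned reads to mm9 with Bowtie, kept those with a unique place, and ran cisGenome 2.0 on each library against NfkB2-/- input (200-base windows, at least 4 reads, FDR under 0.1, fold above 2). The authors deposited for each peak an FDR (a q-value), a log2 fold over scaled input and counts of ChIP and input reads, not normalized. Counts were given for the whole peak and as the highest of any window in it, where the ChIP and input maxima need not share a window. The fold was checked in the 238 peaks with no input read whose fullest ChIP window was also the window of the strongest fold. In all of them the deposited log2 fold equalled log2 of that window's ChIP reads plus 1, within 1e-05.

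Peaks of the 8 lists were joined into 1 site where they overlapped by 1 bp or more, and the centre of a site is the mean of the centres of its peaks. The fold of a library at a site is that of its highest peak there. Genes came from the GENCODE vM1 annotation of mm9, and the study itself used Ensembl gene models. Strength was compared with limma 3.58.1 (lmFit, eBayes, R 4.3.3, Benjamini-Hochberg adjustment over 1860 sites), and numbers of peaks with an exact permutation test. Other steps used Python 3.11.15, and the merging and limma steps were tested on simulated data. Motifs were searched on both strands within 100 bp of site centres. The κB consensus is the general 10-base form. All 9 genes were named, each with its nearest site and its sites in all 4 libraries, and sequence was chosen for the strongest site of each gene, with the promoters that share a run added. The members and lists were chosen with earlier results of these data known, and the shared run, the 1 kb counts, the protein-coding background and the check of 32-base words were added after seeing the values. Alternatives covered thresholds, distance, merging, centring, a replicate block (exact sign-flip test for numbers of peaks) and leaving out each library. Replicate numbers come from the library labels. Intervals of read counts cover counting error only, and the limma intervals rest on the spread between libraries.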

Additional observations from a re-analysis of the deposited data

How the results depend on the processing

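The mean number of peaks near the 9 genes at 6 h was 8.25, against 0 at 0 h, and became 6.25 at an FDR under 0.01, 7.5 at a log2 fold above 2, 6.75 within 20 kb and 11.75 within 100 kb, each with an exact permutation p of 0.029. With the short lists at 0 h, the same p in each setting cannot set these genes apart from the whole lists. Leaving out each library in turn gave means from 8 to 8.67 with an exact permutation p of 0.0571, the smallest that 4 against 3 allows. The number of sites in all 4 libraries was 5 in every setting except 4 within 20 kb, 7 within 100 kb and 6 in all libraries left when RelA 6 h replicate 2 was left out. The number of genes with such a site was 6 in every setting except 5 within 20 kb and 9 within 100 kb, where Cxcl3, Cxcl5 and Cxcl12 joined. The share of all annotated genes was not computed at 20 kb or 100 kb, so these 2 counts cannot be set against the genome. The number of sites with a κB match was 11 under a stricter consensus and in 250 bp windows too. No CXC site was called between RelA and RelB in any setting. Over all sites, limma called 11, against 8 without centring, 10 after quantile normalization, 0 when peaks were merged by centres within 500 bp, 40 and 39 without RelA replicate 1 or 2, and 0 without either RelB library. With replicate number as a block (replicate block) it called 85, of which 0 were CXC sites. The deviations of RelA and RelB libraries with the same number had a correlation of -0.00256. This does not settle whether libraries with the same number came from the same culture, which the labels do not say. Paired by antibody and replicate number (replicate block, added after seeing the data), the difference in the number of peaks was 8.25 with an exact sign-flip p of 0.125, the smallest that 4 pairs allow. The RelA minus RelB difference stayed above 0 in every setting at the start sites of Cxcl1 (0.15 to 0.91) and Cxcl10 (0.05 to 0.88). Its size there depended on single libraries, with 0.15 at Cxcl1 without RelA replicate 1 and 0.05 at Cxcl10 without RelB replicate 1. The difference changed sign at the Med11 site near Cxcl16, to 0.20 without RelA replicate 1 and 0.10 without RelB replicate 2 (range -0.37 to 0.20). It also changed sign downstream of Cxcl2, to 0.13 without RelA replicate 1 (range -0.38 to 0.13), and upstream of Cxcl1, to 0.13 without RelA replicate 2 and 0.07 without RelB replicate 1 (range -0.30 to 0.13), and the cause was not tested. The fullest windows held 11 to 45 ChIP reads, total reads are not known, and no setting varied the depth.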
